A study of Mus musculus with 6 samples.

Results

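The transcriptomes of differentiating C2C12 cells given 4-phenylbutyric acid (4-PBA) were compared with those of cells given DMSO at day 4. The comparison used 4 of the 6 samples of the series, 2 with 1 mM 4-PBA and 2 with DMSO alone, chosen by their labels, and it covered 17433 tested genes of 43074 gene symbols. C2C12 is an established wild-type mouse myoblast line. The day 4 cells had been moved from growth medium with fetal bovine serum to medium with horse serum and kept there with the compound or the vehicle for 4 days. The other 2 samples were untreated day 0 cells. They entered the model to share the estimate of the spread, and they also took part in the gene filter and the scaling of the libraries. The labels do not say whether the 4-PBA cells also received DMSO, or whether the 2 libraries of a group came from separate cultures, so p-values measure the spread between these libraries, which may be technical.

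4-PBA is an aromatic fatty acid that binds nitrogen for excretion, inhibits histone deacetylases and acts as a chemical chaperone that eases protein folding. Myoblasts kept in low mitogen leave the cell cycle, fuse into multinucleated myotubes and build sarcomeres, while some cells in the dish stay single. Growth factor signalling through ERK opposes this exit, the insulin-like growth factors favour it, and transforming growth factor ligands restrain it. The series title names NF-κB, Egr-1, proliferation and the extracellular matrix. Here the metabolic genes, signalling pathways and transcription factors that differed between the treatments were described.

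Libraries held 62160244 to 74697397 counts at day 4, and mitochondrial transcripts took 3.14% to 3.43% of the counts in any of the 6 libraries. Levels are given as CPM (counts relative to the library's total) after TMM scaling, which corrects library size but not gene length. The skeletal muscle markers Myod1, Myog, Des, Ckm, Acta1, Myh3, Mylpf and Ttn summed to 9970 and 10400 CPM with DMSO and to 9320 and 9450 CPM with 4-PBA, and 3 of the 8 were called lower. Summed markers were 15.4 to 16.1 CPM with DMSO against 15.3 to 16.2 CPM with 4-PBA for adipocytes (Fabp4 and Cfd at 0), and 61.6 to 67.6 against 56.8 to 58.7 CPM for osteoblasts. They were 2.33 to 2.65 against 1.92 to 1.93 CPM for endothelium, and 1.78 to 2.65 against 1.47 to 2.5 CPM for leukocytes. The sums were 4.68 to 4.87 against 3.51 to 4.09 CPM for glia and neurons (Sox10 at 0), and 132 to 133 against 107 to 113 CPM for chondrocytes. Nearly all of the last sum was Sox9. One 4-PBA library stood apart at a few transcripts: Cmss1 measured 1044 CPM in 4-PBA replicate 2 and 468 to 558 CPM in the other day 4 libraries, and Cdk8 measured 496 against 262 to 273 CPM. In bulk RNA, fewer cells of a type and less RNA per cell cannot be told apart.

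4-PBA changed many well-expressed genes, each by a small amount. The edgeR quasi-likelihood test with Benjamini-Hochberg adjustment called 855 genes at an adjusted p under 0.05 (2908 at an unadjusted p under 0.05), which is 4.9% of those tested. Of these, 371 were higher with 4-PBA (2.13% of tested genes) and 484 were lower (2.78%). Among the 9572 well-expressed genes, those with a mean of at least 10 CPM over the 4 day 4 libraries, 757 were called (7.91%), 328 higher and 429 lower. The middle call among them was a log2 fold change of 0.20 in size, with quartiles of 0.15 and 0.26. Only 4 of the 757 changed by 1.5-fold or more and 0 by 2-fold. All 855 called genes had both libraries of one treatment above both of the other, which was also true of 45.5% of all tested genes. Where such a separation is given below for a called gene, it describes the values and adds nothing to the call.

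The number of calls depended on single libraries. When DMSO replicate 1 or 2 was left out it was 1194 or 958, and when 4-PBA replicate 1 or 2 was left out it was 341 or 295; such counts are given below in this order. Higher genes made up 43.4% of the calls and 53.1% without DMSO replicate 1. With library size as the only scaling they made up 51.5% of 896 calls, and the median log2 fold change of all genes was 0.011 instead of 0.00205. A total of 179 genes were called in each of the 6 fits that left out 1 library, and 169 of them were well expressed, 62 higher and 107 lower. An exact permutation test of 2 libraries against 2 cannot give a 2-sided p below 0.333, so all calls rest on a spread shared across genes.

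**Figure D1:**
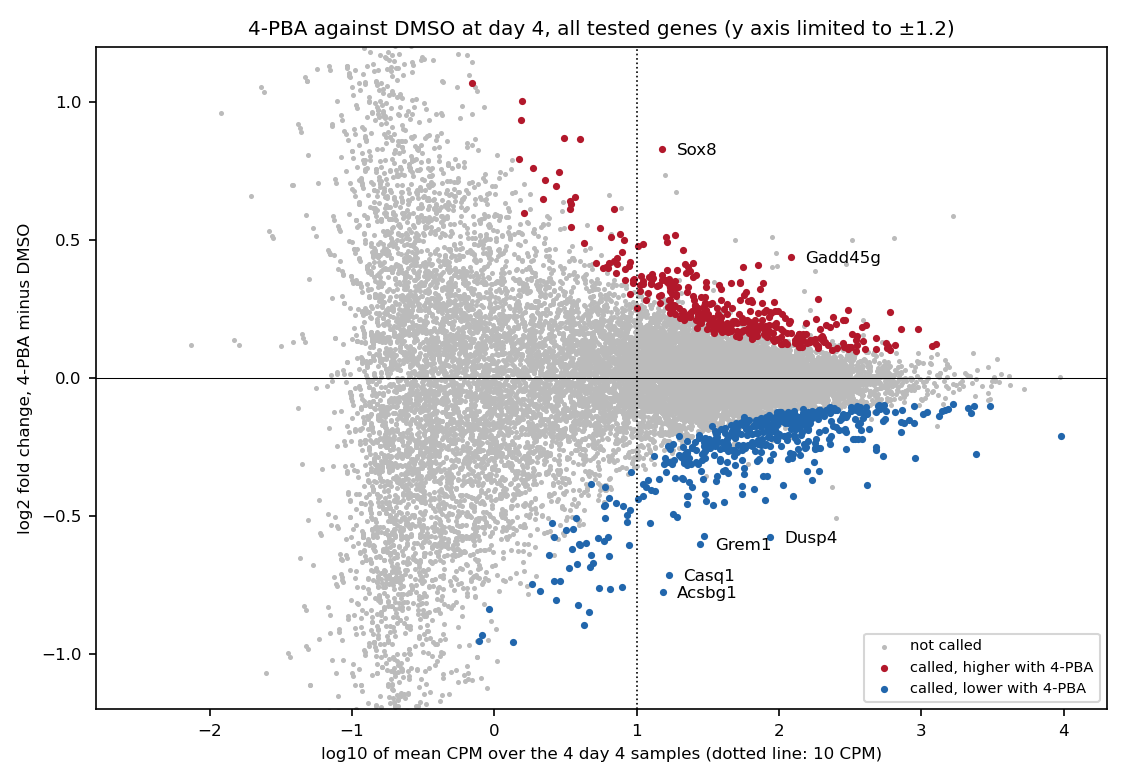
Log2 fold change (4-PBA minus DMSO, y axis) against the log10 of the mean CPM over the 4 day 4 libraries (x axis) for the tested genes; red points were called higher, blue points lower, and the dotted line marks 10 CPM. To the right of that line few called genes pass 0.5 on the log2 scale, among them Sox8 at 0.83 and Casq1 at -0.71; 287 genes, 10 of them called, lie outside the plotted range.

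To read the calls by pathway, 44 gene lists with 2028 tested members were used; 216 of these members were called, and 559 well-expressed called genes were in no list. Calls that ran in 1 direction were found, among others, in the lists for cholesterol synthesis, DNA replication and mitosis, which held only higher calls, and in those for ERK output, NF-κB, the ATF4 response, p53 targets and bZIP factors, which held only lower calls. Genes of the citric acid cycle, branched-chain amino acid breakdown, cytosolic ribosomal proteins and mitochondrially encoded respiration had 0 calls by edgeR among 31, 21, 81 and 13 tested members, with 1, 1, 8 and 1 at an unadjusted p under 0.05 and 0 calls each by DESeq2's Wald test. Without DMSO replicate 2, however, edgeR called 1 breakdown, 4 ribosomal and 3 mitochondrial genes, and without DMSO replicate 1 it called 1 ribosomal and 2 mitochondrial genes. The lists were described by their counts and medians, read against the shares over all genes given above. For lists of mostly well-expressed genes the closer reference is 7.91%. Chaperones (4.76%), with 40 of 42 tested members well expressed, were below that share. Homeobox factors (7.35%), nuclear receptors (8.33%) and Wnt genes (6.67%) had only 34 of 68, 22 of 36 and 24 of 45 tested members well expressed. Their shares were above the 4.9% of all tested genes but rested on few calls. The calls of these lists are given as single genes.

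**Figure D2:**
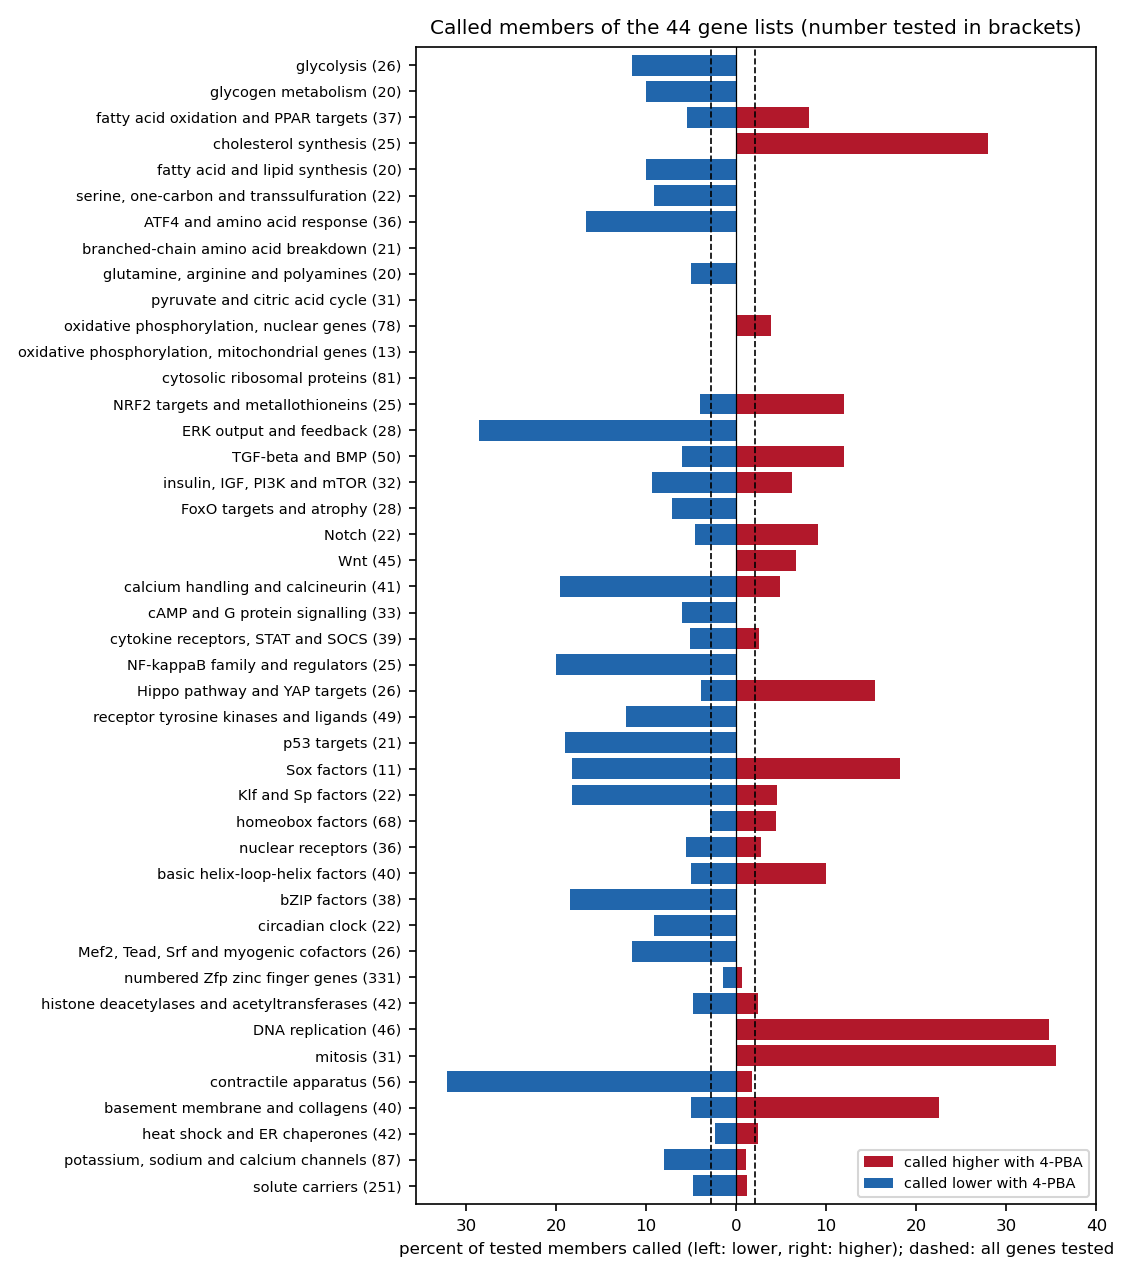
Percent of the tested members called higher (red, to the right) and lower (blue, to the left) in each of the 44 gene lists, with the number tested in brackets; dashed lines mark the shares of all genes, 2.13% higher and 2.78% lower. The longest bars to the right belong to mitosis (35.5%) and DNA replication (34.8%), and the longest to the left to the contractile apparatus and to ERK output. The lines cover genes at all levels: 4.9% of all tested genes were called, but 7.91% of the well-expressed genes that fill many lists.

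Called metabolic genes included several that handle zinc, which were grouped after their values were seen and form no list of their own. The zinc exporter Slc30a1 and the metallothioneins Mt1 and Mt2, small cysteine-rich proteins that bind zinc and copper, rose with 4-PBA, and the zinc importers Slc39a10 and Slc39a14 fell. Metallothioneins and Slc30a1 are known targets of the zinc sensor MTF1, which binds metal response elements. To show where the core of that element lies, the bases upstream of the RefSeq start sites of the genes that rose are printed 5′ to 3′ (build GRCm38.p6, in the direction of the gene). Capitals mark each match to TGCGCNC or TGCACNC on either strand. They are chr8:94172378-94172617 (plus strand), chr8:94178999-94179088 (plus strand) and chr1:191906691-191906780 (plus strand) in turn.
Mt2: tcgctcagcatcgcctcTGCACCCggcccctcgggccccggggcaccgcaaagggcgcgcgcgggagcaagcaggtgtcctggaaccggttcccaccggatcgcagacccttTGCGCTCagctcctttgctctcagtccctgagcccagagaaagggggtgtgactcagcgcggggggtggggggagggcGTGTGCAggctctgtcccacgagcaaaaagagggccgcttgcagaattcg
Mt1: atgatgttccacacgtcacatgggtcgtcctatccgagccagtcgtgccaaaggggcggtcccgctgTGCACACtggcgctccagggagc
Slc30a1: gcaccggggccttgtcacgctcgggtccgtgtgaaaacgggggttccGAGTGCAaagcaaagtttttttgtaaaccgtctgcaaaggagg

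Within 250 bases upstream of its start site, Mt2 had 3 matches, Mt1 had 1 and Slc30a1 had 1, and the 2 windows of Slc39a10 had 0. Bases after the start sites were not searched, so the 0 does not show that Slc39a10 lacks the element. Slc39a14 and Slc30a4 were not searched. Of 32851 such windows of all genes, 21.4% held a match, so a match describes the letters and is not a binding site by itself. Slc30a1 measured 13 and 14 CPM with DMSO against 18.3 and 19.8 CPM with 4-PBA, a log2 fold change of 0.49 (SE 0.0771, adjusted p = 7.08e-05). Mt1 measured 13.4 and 15.3 CPM with DMSO against 18.4 and 18.3 CPM with 4-PBA (0.35, SE 0.0645, adjusted p = 0.000594). Both 4-PBA libraries of each gene lay above both DMSO libraries, and the calls stood with any 1 library left out. Mt2, below the 10 CPM line, measured 5.5 and 6.92 CPM with DMSO against 9.41 and 8.54 CPM with 4-PBA (0.52, SE 0.0951, adjusted p = 0.000571). The importer Slc39a10 measured 67.8 and 57.5 CPM with DMSO against 44.8 and 48.9 CPM with 4-PBA (-0.42, SE 0.0679, adjusted p = 0.0024). Its DMSO libraries differed from each other by more than its 4-PBA libraries did, but the groups did not overlap. Slc39a14 fell by 0.18 (SE 0.0405) and Slc30a4, which moves zinc into vesicles, by 0.16 (SE 0.0306) on the log2 scale; the first lost its call without 4-PBA replicate 1 (adjusted p = 0.162) and the second without 4-PBA replicate 2 (adjusted p = 0.0922).

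Antioxidant targets of NRF2 share a list with the metallothioneins. The list had 25 tested members, with 3 higher calls (Slc30a1, Mt2 and Mt1) and 1 lower, a median log2 fold change of 0.0385, and 3, 5, 3 and 3 calls with 1 library left out. The lower call was Osgin1, an oxidative stress target, at 15.1 and 14.1 CPM with DMSO against 11.3 and 12.7 CPM with 4-PBA (-0.28, SE 0.0831, adjusted p = 0.04). It was lost without any library other than DMSO replicate 2, the adjusted p reaching 0.444 without 4-PBA replicate 1. Hmox1, the haem-degrading enzyme, was not called, with 20.1 and 21 CPM against 20.1 and 19.1 CPM. Nqo1, the quinone reductase, was not called either, with 5.71 and 5.16 CPM against 5.41 and 5.39 CPM.

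Cholesterol synthesis genes leaned upward. Of 25 tested members, 7 rose, 0 fell and 24 had a positive log2 fold change, with a median of 0.13. The summed list measured 3504 and 3174 CPM in DMSO replicates 1 and 2, and 3618 and 3691 CPM with 4-PBA, so both 4-PBA libraries were above both DMSO libraries while the DMSO pair differed by more than the 4-PBA pair. The count was 21, 4, 5 and 3 with 1 library left out, and the median ranged from 0.0453 without DMSO replicate 2 to 0.215 without DMSO replicate 1. Msmo1 and Cyp51, sterol demethylation enzymes, showed the smallest adjusted p-values. Msmo1 measured 100 and 93.7 CPM with DMSO against 112 and 116 CPM with 4-PBA (0.23, SE 0.0381, adjusted p = 0.000125). Cyp51 measured 175 and 163 CPM with DMSO against 196 and 195 CPM with 4-PBA (0.21, SE 0.0363, adjusted p = 0.000295). Fdft1, the squalene synthase, measured 150 and 138 CPM with DMSO against 165 and 166 CPM with 4-PBA (0.20, SE 0.0364, adjusted p = 0.000539). These 3 kept their calls with any 1 library left out. The other 4 calls were Insig1, which retains the sterol sensor in the endoplasmic reticulum, the sterol carrier Stard4, and the enzymes Sc5d and Lss, with log2 fold changes of 0.15 to 0.24. Each lost its call without 4-PBA replicate 2, at adjusted p = 0.267, 0.103, 0.28 and 0.182. Insig1, Stard4 and Sc5d also lost it without DMSO replicate 2, at adjusted p = 0.0991, 0.212 and 0.176, and Stard4 and Sc5d without 4-PBA replicate 1, at 0.142 and 0.0715.

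The fatty acid synthesis list had 0 higher and 2 lower calls of 20 tested members, with a median of 0.0212, and 3, 3, 0 and 0 calls with 1 library left out. Scd1, the stearoyl-CoA desaturase, measured 1461 and 1436 CPM with DMSO against 1329 and 1338 CPM with 4-PBA (-0.12, SE 0.0271, adjusted p = 0.00536). Acaca, which makes malonyl-CoA, measured 171 and 159 CPM with DMSO against 149 and 149 CPM with 4-PBA (-0.15, SE 0.035, adjusted p = 0.008). Scd1 had adjusted p = 0.174 and 0.132 without 4-PBA replicates 1 and 2, and Acaca 0.125 and 0.1, with 0.0848 without DMSO replicate 1.

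Genes that move or activate fatty acids changed in both directions. In the list of fatty acid oxidation and PPAR targets 3 of 37 tested members rose and 2 fell (6, 5, 4 and 2 calls with 1 library left out; median 0.0342). Acsbg1, an acyl-CoA synthetase, had the largest fall of any eligible gene, from 21.8 and 16.7 CPM with DMSO to 11.5 and 11 CPM with 4-PBA (-0.78, SE 0.109, adjusted p = 0.00232). The day 0 mean of Acsbg1 was 70 CPM, and its DMSO libraries lay further apart than its 4-PBA libraries. Ucp2, a mitochondrial carrier of the inner membrane, measured 49.4 and 46.6 CPM with DMSO against 59.3 and 57.4 CPM with 4-PBA (0.28, SE 0.0533, adjusted p = 0.000719). Cpt1a, the gate of mitochondrial fatty acid entry, measured 40.3 and 39.4 CPM with DMSO against 46.2 and 47.3 CPM with 4-PBA (0.23, SE 0.0489, adjusted p = 0.00285). The 4-PBA libraries of both were above the DMSO libraries, and Cpt1a lost its call without 4-PBA replicate 2 (adjusted p = 0.0744). Pdk4, a PPAR target that slows pyruvate oxidation, was not called (0.10, SE 0.0652, adjusted p = 0.504). Acsl3 (0.11) and the transporter Slc27a1 (-0.15) were called but lost it without 4-PBA replicate 2 (adjusted p = 0.301 and 0.341). Slc27a1 also lost it without DMSO replicate 2 (0.166), and Acsl3 without any library other than DMSO replicate 2, with 0.163 without 4-PBA replicate 1.

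Transcripts of a few glycolytic enzymes were lower with 4-PBA. Of 26 tested glycolysis genes 0 rose and 3 fell, while the median of the list was 0.0238 and 17 members were positive, so the calls do not describe the whole pathway. The count was 8, 5, 2 and 3 with 1 library left out. Hk2, the hexokinase that traps glucose in muscle, measured 98.3 and 98.9 CPM with DMSO against 79.1 and 83.8 CPM with 4-PBA (-0.28, SE 0.0379, adjusted p = 1.04e-05). Eno3, the muscle enolase, measured 464 and 454 CPM with DMSO against 403 and 404 CPM with 4-PBA (-0.19, SE 0.0289, adjusted p = 6.48e-05). Both genes were lower in both 4-PBA libraries and kept their calls with any 1 library left out. Pfkm, the muscle phosphofructokinase, measured 145 and 146 CPM with DMSO against 127 and 134 CPM with 4-PBA (-0.15, SE 0.0363, adjusted p = 0.00902), and lost its call without 4-PBA replicate 1 (adjusted p = 0.295). The glucose carrier Slc2a6 fell by 0.37 (SE 0.0767, adjusted p = 0.00245; 0.0978 without 4-PBA replicate 1), and Slc2a1 was not called (-0.18, SE 0.0566, adjusted p = 0.116). In glycogen metabolism 2 of 20 tested members fell, the phosphorylase Pygm (-0.19) and the phosphorylase kinase subunit Phka2 (-0.18), and the count was 4, 0, 0 and 0 with 1 library left out. Ugp2, which makes UDP-glucose, stood at 117 and 129 CPM with DMSO against 125 and 122 CPM with 4-PBA.

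Amino acid genes under ATF4, the factor that answers amino acid shortage and endoplasmic reticulum stress, leaned downward. Of 36 tested members 0 rose and 6 fell, 4 had a positive log2 fold change, and the median was -0.079. With 1 library left out the count was 7, 11, 1 and 2, and the median ranged from -0.0961 to -0.0655. The transfer RNA synthetase Nars measured 308 and 314 CPM with DMSO against 277 and 287 CPM with 4-PBA (-0.14, SE 0.0304, adjusted p = 0.00365). Wars1, another synthetase, measured 104 and 102 CPM with DMSO against 90.9 and 92 CPM with 4-PBA (-0.17, SE 0.0375, adjusted p = 0.0047). Ddit4, an inhibitor of mTOR signalling, measured 30.6 and 28.1 CPM with DMSO against 25.2 and 25.3 CPM with 4-PBA (-0.22, SE 0.0591, adjusted p = 0.0243). Each was lower in both 4-PBA libraries. Without 4-PBA replicate 1 the adjusted p was 0.195 for Nars, 0.099 for Wars1 and 0.189 for Ddit4. Without 4-PBA replicate 2 it was 0.0602 for Wars1 and 0.153 for Ddit4, and without DMSO replicate 1 it was 0.169 for Ddit4. Sesn2, Trib3 and Eprs were the other calls, and without a 4-PBA library their adjusted p reached 0.382, 0.425 and 0.394. Atf4 itself (0.03, SE 0.0393, adjusted p = 0.782) and asparagine synthetase Asns (-0.09, SE 0.0389, adjusted p = 0.201) were not called.

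In the folate and transsulfuration list 2 of 22 tested members fell, a share of 9.09% beside 4.9% of all tested genes. Its 15 well-expressed members held 1 lower call. Aldh1l2, the mitochondrial formyltetrahydrofolate dehydrogenase, measured 83.4 and 75 CPM with DMSO against 64.5 and 64.6 CPM with 4-PBA (-0.29, SE 0.0452, adjusted p = 6.42e-05). Cth, which makes cysteine from cystathionine, was low in these cells, at 9.4 and 7.04 CPM with DMSO against 4.96 and 4.67 CPM with 4-PBA (-0.77, SE 0.131, adjusted p = 0.000268). Both calls stood with any 1 library left out. The polyamine-degrading enzyme Sat1 was the only call among 20 tested genes of glutamine, arginine and polyamine metabolism, at 120 and 120 CPM against 110 and 109 CPM (-0.12, SE 0.0349, adjusted p = 0.0286), and lost it without 4-PBA replicate 1 (0.173), 4-PBA replicate 2 (0.268) or either day 0 library (0.0581 and 0.0556).

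Transcripts for mitochondrial respiration gave few calls. Among 78 tested nuclear genes of oxidative phosphorylation 3 rose and 0 fell, a share of 3.85%, with a median of 0.0351, and the calls numbered 0, 9, 0 and 0 with 1 library left out. The called members were the small subunits Ndufc1 of complex I (0.24, SE 0.0663, adjusted p = 0.0248), Cox6c of complex IV (0.11, SE 0.0342, adjusted p = 0.0446) and Atp5md of the ATP synthase. Ndufc1 measured 21.5 and 23.5 CPM with DMSO against 27.6 and 25.6 CPM with 4-PBA. Cox6c measured 131 and 133 CPM with DMSO against 141 and 145 CPM with 4-PBA. The mitochondrially encoded mt-Co1 overlapped between groups, at 8978 and 9697 CPM with DMSO against 9609 and 9101 CPM with 4-PBA. Outside respiration, the ribosomal protein Rplp0 measured 1096 and 1051 against 1063 and 1069 CPM, and Acadsb, of branched-chain amino acid breakdown, measured 60.6 and 66.3 against 63.9 and 62.6 CPM.

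Among 251 tested solute carriers 3 rose and 12 fell, 5.98% in all (18, 19, 6 and 7 with 1 library left out). Besides the zinc carriers, the mitochondrial iron importer Slc25a37 fell, from 154 and 140 CPM with DMSO to 118 and 127 CPM with 4-PBA (-0.26, SE 0.0415, adjusted p = 0.000376). The glutamate transporter Slc1a3 rose by 0.36 (SE 0.0814, adjusted p = 0.00494), from 10.5 and 11.4 to 15.1 and 13.1 CPM, and lost its call without 4-PBA replicate 1 (adjusted p = 0.226). Of the metabolic genes described, exons of Slc30a1, Mt2, Slc30a4, Cyp51, Fdft1, Lss, Ucp2, Pfkm, Phka2, Ugp2, Aldh1l2, Cox6c, Slc25a37, Slc2a1 and mt-Co1 share bases with exons of another gene on the other strand (GENCODE M21). Since the strand setting of the counting is not given in the sources used here, reads of such a pair cannot be told apart.

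**Figure D3:**
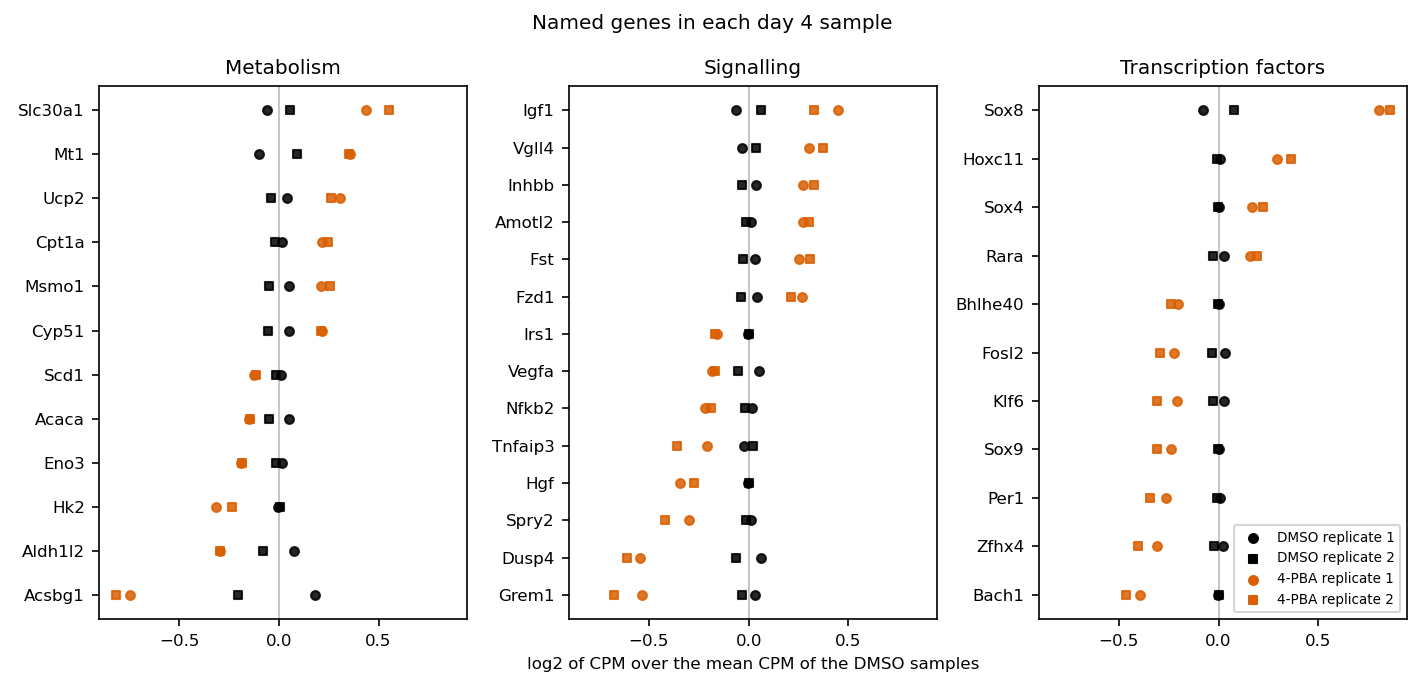
CPM of named genes in each day 4 library, as the log2 of its ratio to the mean of the 2 DMSO libraries (x axis), for metabolism, signalling and transcription factors; black marks are DMSO, orange marks 4-PBA, circles replicate 1 and squares replicate 2. The genes shown were taken from those named by a rule that required both orange marks on 1 side of both black marks. They run from Sox8 at the high end to Acsbg1 at the low end.

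The calls among output and feedback genes of the ERK pathway were all lower with 4-PBA, although most members were not called. ERK, the mitogen-activated kinase below growth factor receptors, switches on transcription factors and, with them, phosphatases and Sprouty proteins that restrain it. Of 28 tested output and feedback genes 0 rose and 8 fell, a share of 28.6%, with a median of -0.129 and 6 positive members. The summed list measured 2157 and 2032 CPM with DMSO against 2040 and 1707 CPM with 4-PBA, so the groups overlapped in the sum. The count was 7, 11, 10 and 9 with 1 library left out, and the median ranged from -0.197 to -0.0908. DESeq2's Wald test called 10 members, 1 of them higher. The phosphatase Dusp4 measured 108 and 99.1 CPM with DMSO against 71.1 and 68 CPM with 4-PBA (-0.57, SE 0.0393, adjusted p = 2.48e-11). Spry2, an inhibitor of receptor signalling, measured 87 and 85.4 CPM with DMSO against 70.1 and 64.5 CPM with 4-PBA (-0.36, SE 0.043, adjusted p = 1.15e-06). Spry4, near the 10 CPM line, measured 10.6 and 9.22 CPM with DMSO against 5.86 and 5.88 CPM with 4-PBA (-0.76, SE 0.102, adjusted p = 8.02e-06). All 3 were clearly apart between treatments and kept their calls with any 1 library left out. Dusp10, which acts on the stress kinases p38 and JNK, measured 103 and 103 CPM with DMSO against 92.8 and 87 CPM with 4-PBA (-0.20, SE 0.0388, adjusted p = 0.00114; 0.12 without 4-PBA replicate 2). The targets Etv4 (-0.19), Dusp6 (-0.24) and Fosl1 (-0.43) fell by amounts that without 4-PBA replicate 2 had adjusted p = 0.139, 0.195 and 0.191; Etv4 had 0.129 and 0.0627 without DMSO replicate 1 and 4-PBA replicate 1, and Fosl1 0.0809 without the latter. The remaining call was Myc (-0.33, SE 0.0595, adjusted p = 0.00295), which stood with any 1 library left out.

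Egr1, Dusp1 and Fos, immediate targets of growth factor signalling, were not called. Egr1 overlapped, at 286 and 274 CPM with DMSO against 347 and 238 CPM with 4-PBA, and was not called (0.06, SE 0.215, adjusted p = 0.941). Its 4-PBA libraries lay on both sides of the DMSO libraries. Dusp1 measured 152 and 156 CPM with DMSO against 220 and 183 CPM with 4-PBA (0.39, SE 0.102, adjusted p = 0.19), and the AP-1 factor Fos 11.9 and 11.7 against 24.4 and 15 CPM (0.74, SE 0.271, adjusted p = 0.326). In all 3 genes 4-PBA replicate 1 was the highest of the day 4 libraries.

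Ligands and receptors of tyrosine kinase pathways gave 0 higher and 6 lower calls of 49 tested members (6, 6, 3 and 2 with 1 library left out; median -0.0394). Vegfa, the vascular growth factor, measured 275 and 257 CPM with DMSO against 234 and 237 CPM with 4-PBA (-0.18, SE 0.0329, adjusted p = 0.00068). Hgf, the hepatocyte growth factor that activates muscle satellite cells, measured 17.3 and 17.3 CPM with DMSO against 13.6 and 14.3 CPM with 4-PBA (-0.31, SE 0.0674, adjusted p = 0.00374; 0.0933 without 4-PBA replicate 1). Ddr2, a collagen receptor, measured 291 and 294 CPM with DMSO against 269 and 262 CPM with 4-PBA (-0.14, SE 0.0305, adjusted p = 0.00344; 0.161 without 4-PBA replicate 2). The EGF receptor ligands Ereg (-0.43) and Areg (-0.55) and the ephrin receptor Epha2 (-0.22) were the other calls, and without 4-PBA replicate 2 their adjusted p was 0.111, 0.153 and 0.135. Without DMSO replicate 1 it was 0.0927 for Ereg and 0.293 for Areg, and without 4-PBA replicate 1 it was 0.097 for Areg and 0.178 for Epha2.

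Regulators of TGF-β and BMP signalling changed in both directions, mostly among secreted ligands and their antagonists. Of 50 tested members 6 rose and 3 fell (7, 9, 3 and 3 calls with 1 library left out; median 0.0244). Grem1, a secreted BMP antagonist, measured 34.5 and 32.9 CPM with DMSO against 23.3 and 21.1 CPM with 4-PBA (-0.60, SE 0.0474, adjusted p = 2.2e-10). Inhbb, the activin B subunit, measured 52.3 and 49.8 CPM with DMSO against 61.6 and 64.1 CPM with 4-PBA (0.30, SE 0.0478, adjusted p = 8.69e-05). Grem1 fell and Inhbb rose in both 4-PBA libraries, and both calls stood with any 1 library left out. Fst, follistatin, which binds activins and myostatin, measured 58.1 and 55.7 CPM with DMSO against 67.9 and 70.4 CPM with 4-PBA (0.28, SE 0.0529, adjusted p = 0.00085; 0.053 without 4-PBA replicate 2). The ligand Bmp4 stood at 5.28 and 5.68 CPM with DMSO against 8.7 and 6.94 CPM with 4-PBA (0.51, SE 0.128, adjusted p = 0.0124), and its call was lost without 4-PBA replicate 1 (0.352) or DMSO replicate 1 (0.057). Id2, a BMP target that blocks myogenic factors, fell by 0.34 (SE 0.0855, adjusted p = 0.0125), with 0.145 without DMSO replicate 1, and 0.133 and 0.0851 in the fits lacking 4-PBA replicates 1 and 2. Fstl1 (0.12), Ltbp4 (0.16) and Smad2 (0.14) rose and Skil (-0.13) fell by small amounts, and none of these 4 kept its call without 4-PBA replicate 2 (adjusted p = 0.139, 0.136, 0.153 and 0.41).

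In the insulin and IGF pathway the ligand Igf1 rose and the adaptor Irs1 fell, while the ligand Igf2 was tested and not called. The list's median was -0.013. Igf1, the growth factor made by differentiating muscle cells, measured 19.6 and 21.5 CPM with DMSO against 28.1 and 25.8 CPM with 4-PBA (0.39, SE 0.0765, adjusted p = 0.00127; 0.0834 without 4-PBA replicate 1). Irs1, the docking protein of the insulin and IGF receptors, measured 158 and 159 CPM with DMSO against 142 and 141 CPM with 4-PBA (-0.16, SE 0.0327, adjusted p = 0.00141; 0.0639 without 4-PBA replicate 2). Of the 32 tested members 2 rose and 3 fell (4, 5, 2 and 2 with 1 library left out). The binding proteins moved apart, Igfbp3 up by 0.43 (SE 0.121, adjusted p = 0.0273) from a low level and Igfbp5 down by 0.12 (SE 0.0285, adjusted p = 0.00962). Igfbp3 had adjusted p = 0.291 without 4-PBA replicate 1, its highest, and Igfbp5 had 0.267 without 4-PBA replicate 2. The last call was Deptor, an mTOR inhibitor (-0.21, SE 0.04, adjusted p = 0.00177; 0.0809 without 4-PBA replicate 1).

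Targets of FoxO, the factors that insulin signalling holds back, gave 2 lower calls of 28 tested members (3, 1, 2 and 0 with 1 library left out). This share of 7.14% was near the 7.91% of all well-expressed genes, so the calls are given as single genes. Trim63, the muscle atrophy ubiquitin ligase MuRF1, measured 15.6 and 16.9 CPM with DMSO against 13.1 and 12.1 CPM with 4-PBA (-0.37, SE 0.0902, adjusted p = 0.0107). It lost the call without DMSO replicate 2 (adjusted p = 0.114) or 4-PBA replicate 2 (0.186). Depp1, a FoxO target induced by starvation, measured 6.93 and 6.77 CPM with DMSO against 4.4 and 3.67 CPM with 4-PBA (-0.76, SE 0.153, adjusted p = 0.00154; 0.0626 without 4-PBA replicate 2).

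Among calcium handling genes most calls were lower with 4-PBA, while most members were not called. Excitation opens the voltage sensor in the transverse tubule, which opens the ryanodine receptor, and the pump Atp2a1 returns calcium to stores that Casq1 buffers. Of 41 tested members 2 rose and 8 fell, 12 were positive, and the median was -0.0648, with counts of 15, 8, 4 and 5 with 1 library left out. Casq1, calsequestrin, measured 20.6 and 21.3 CPM with DMSO against 13.3 and 12.3 CPM with 4-PBA (-0.71, SE 0.0841, adjusted p = 8.53e-07). Ryr1, the release channel, measured 508 and 530 CPM with DMSO against 437 and 436 CPM with 4-PBA (-0.25, SE 0.0302, adjusted p = 1.31e-06). Atp2a1 measured 210 and 216 CPM with DMSO against 169 and 169 CPM with 4-PBA (-0.34, SE 0.0435, adjusted p = 6.48e-05). These 3 were lower in both 4-PBA libraries and kept their calls with any 1 library left out. The channel subunits Cacnb1 (-0.19, SE 0.0356, adjusted p = 0.000849) and Cacng1 (-0.18, SE 0.0347, adjusted p = 0.00105) had adjusted p = 0.0755 and 0.076 without 4-PBA replicate 1. Camk2a, Cacna1s and Stac3 were the other falls and lost their calls without 4-PBA replicate 2 (adjusted p = 0.0709, 0.0824 and 0.332). The calmodulin genes Calm2 and Calm3, which encode the same protein and share sequence, rose by 0.10 and 0.11 and lost the call without either 4-PBA library (adjusted p = 0.169 to 0.331).

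Ion channels as a class gave 1 higher and 7 lower calls of 87 tested members, of which 17 were well expressed (8, 6, 3 and 3 with 1 library left out). The muscle sodium channel Scn4a fell by 0.31 (SE 0.0732, adjusted p = 0.00756; 0.0695 and 0.12 without 4-PBA replicates 1 and 2).

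The calls among NF-κB genes were lower with 4-PBA. NF-κB dimers are held in the cytoplasm by inhibitors and, once released, switch on genes of defence and survival as well as their own inhibitors. Relb and Nfkb2 encode the pair of the noncanonical arm, and Tnfaip3 encodes the A20 enzyme that ends the response. Nfkb2 and Tnfaip3 are known targets of the pathway, and the 90 bases upstream of the RefSeq start site listed first for each are printed to show matches to GGGNNTTCC on either strand in capitals, in the direction of the gene (build GRCm38.p6). They are chr19:46304647-46304736 (plus strand) and chr10:19015411-19015500 (minus strand).
Nfkb2: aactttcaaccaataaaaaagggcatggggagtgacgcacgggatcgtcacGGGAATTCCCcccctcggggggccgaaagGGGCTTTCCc
Tnfaip3: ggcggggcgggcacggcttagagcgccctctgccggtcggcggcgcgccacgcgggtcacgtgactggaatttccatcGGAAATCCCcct

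Nfkb2 had 3 matches here, 2 of them overlapping on opposite strands, and Tnfaip3 had 1; the other start sites of both genes had 0 matches in 250 bases. Of 32851 windows of that length 4.98% held a match. Nfkb2 measured 125 and 122 CPM with DMSO against 106 and 108 CPM with 4-PBA, Relb 32.6 and 34.5 CPM against 27.5 and 28.6 CPM. Tnfaip3 measured 51.7 and 53.4 CPM with DMSO against 45.5 and 40.9 CPM with 4-PBA (-0.28, SE 0.0503, adjusted p = 0.000385). Each was lower in both 4-PBA libraries. Of 25 tested family genes and regulators 0 rose and 5 fell, and 0 had a positive log2 fold change, with a median of -0.0881 (range -0.121 to -0.0681 with 1 library left out) and counts of 4, 6, 3 and 3. The adaptors Traf1, at 1.82 and 1.78 CPM against 0.693 and 1.16 CPM, and Traf2 (-0.18, SE 0.0558, adjusted p = 0.0468) were the remaining calls. Nfkb2 kept its call with any 1 library left out. Relb did not without DMSO replicate 2 (adjusted p = 0.0796), 4-PBA replicate 1 (0.17) or 4-PBA replicate 2 (0.0639), Tnfaip3 without 4-PBA replicate 2 (0.0735), and Traf1 and Traf2 without 4-PBA replicate 1 (0.296 and 0.545). Traf2 also lost it without DMSO replicate 1 (0.254) or either day 0 library (0.0772 and 0.0734).

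Cytokine receptors gave 1 higher and 2 lower calls of 39 tested members (5, 4, 1 and 2 with 1 library left out). The interleukin-4 receptor chain Il4ra, whose signal recruits myoblasts to growing myotubes, measured 53.5 and 50.9 CPM with DMSO against 44.5 and 42.6 CPM with 4-PBA (-0.26, SE 0.0486, adjusted p = 0.000663; 0.0523 without 4-PBA replicate 2). Lifr, the leukaemia inhibitory factor receptor, measured 106 and 117 CPM with DMSO against 130 and 127 CPM with 4-PBA (0.21, SE 0.0409, adjusted p = 0.00142; 0.0623 without 4-PBA replicate 1). Il17ra was the third call. The list's share was 7.69% of all its tested members, beside 4.9% of all tested genes. Its 29 well-expressed members held 1 higher and 2 lower calls. In the cAMP list 2 of 33 tested members fell (3, 2, 1 and 1). The cAMP share was 6.06% of all tested members, and its 24 well-expressed members held 2 lower calls. Ptger4, a prostaglandin E2 receptor, measured 47.9 and 45.4 CPM with DMSO against 38.1 and 35.9 CPM with 4-PBA (-0.33, SE 0.0523, adjusted p = 7.58e-05) and kept its call with any 1 library left out. Pde7a, a cAMP phosphodiesterase, measured 79.6 and 84.4 CPM with DMSO against 74.1 and 72.1 CPM with 4-PBA (-0.17, SE 0.0437, adjusted p = 0.0179), with 0.158 without DMSO replicate 2, and 0.0915 and 0.245 in the fits lacking 4-PBA replicates 1 and 2.

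Hippo pathway genes were mostly higher among the calls. YAP, the effector of this pathway, works with TEAD factors and raises Amotl2 and Ajuba, which feed back on it, while Vgll4 competes for TEAD. Of 26 tested members 4 rose and 1 fell (7, 3, 3 and 2 with 1 library left out; median 0.0349). Amotl2 measured 172 and 169 CPM with DMSO against 205 and 210 CPM with 4-PBA (0.29, SE 0.0331, adjusted p = 6.7e-07). Vgll4 measured 32.5 and 34.1 CPM with DMSO against 41.1 and 43.1 CPM with 4-PBA (0.34, SE 0.0541, adjusted p = 0.000104). Both were higher in both 4-PBA libraries and kept their calls with any 1 library left out. Ajuba measured 55 and 50.2 CPM with DMSO against 59.2 and 61.8 CPM with 4-PBA (0.20, SE 0.0485, adjusted p = 0.00881; 0.116 without DMSO replicate 2 and 0.182 without 4-PBA replicate 2). The YAP targets Ccn1 (0.13, SE 0.123, adjusted p = 0.727) and Ccn2 (0.04, SE 0.115, adjusted p = 0.918) were not called. Nf2 was the last rise (0.11), and Tead4, the muscle TEAD factor, the fall (-0.15, SE 0.0417, adjusted p = 0.0337). Nf2 and Tead4 lost their calls without any library other than DMSO replicate 1.

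Notch and Wnt genes gave 6 calls between them. In the Notch list 2 of 22 tested members rose and 1 fell (1, 5, 0 and 0 with 1 library left out). Hes1, a Notch target repressor, measured 65.6 and 66 CPM with DMSO against 73.7 and 72.8 CPM with 4-PBA (0.15, SE 0.0427, adjusted p = 0.0276; 0.227 and 0.155 without 4-PBA replicates 1 and 2). Rbpj, the DNA-binding partner of Notch, measured 105 and 101 CPM with DMSO against 91.3 and 95.5 CPM with 4-PBA (-0.14, SE 0.0398, adjusted p = 0.0299; up to 0.38 without 4-PBA replicate 1). The ligand Dll1 was the other rise. In the Wnt list 3 of 45 tested members rose (2, 2, 2 and 1). The receptor Fzd1 measured 74.3 and 70.3 CPM with DMSO against 87.1 and 83.7 CPM with 4-PBA (0.24, SE 0.0454, adjusted p = 0.000788) and kept its call with any 1 library left out, and the ligand Wnt4 stood at 3.11 and 2.62 CPM against 4.2 and 4.78 CPM (0.66, SE 0.154, adjusted p = 0.00757; 0.0858 without DMSO replicate 2 and 0.136 without 4-PBA replicate 2).

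Targets of p53 gave 0 higher and 4 lower calls of 21 tested members (5, 3, 3 and 2 with 1 library left out; median -0.0531). Mdm2, the ligase that degrades p53, measured 144 and 151 CPM with DMSO against 131 and 129 CPM with 4-PBA (-0.18, SE 0.0342, adjusted p = 0.000747), and kept its call with any 1 library left out. Eda2r, Cdkn1a and Plk2 were the other calls. Cdkn1a, the cell cycle inhibitor p21, measured 728 and 797 CPM with DMSO against 672 and 693 CPM with 4-PBA, and lost its call without 4-PBA replicate 1 (adjusted p = 0.163). Of the signalling genes described, exons of Fosl1, Dusp1, Ddr2, Ereg, Fst, Bmp4, Irs1, Deptor, Casq1, Ryr1, Atp2a1, Cacnb1, Cacna1s, Nfkb2, Il4ra, Ptger4, Pde7a, Ccn2, Dll1 and Cdkn1a overlap a gene on the opposite strand.

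**Figure D4:**
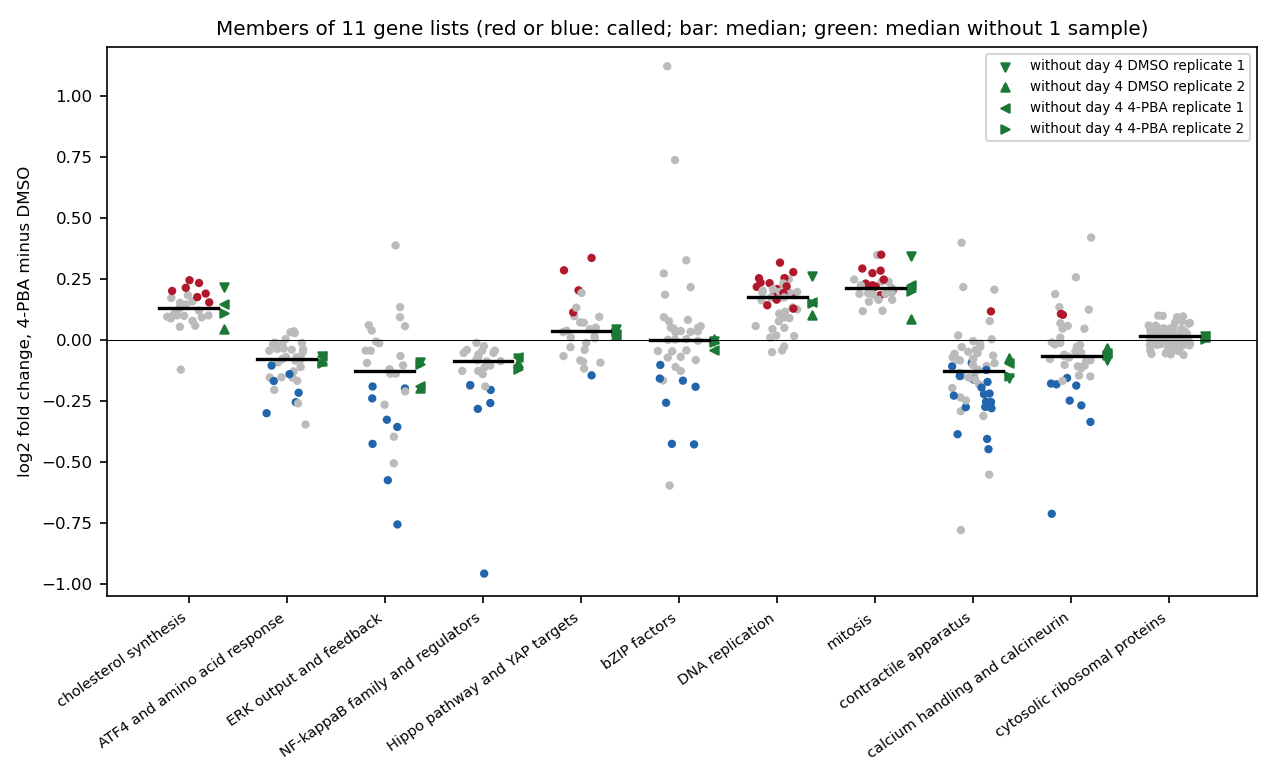
Log2 fold change (4-PBA minus DMSO, y axis) of each tested member of 11 gene lists; red points were called higher, blue points lower, grey points were not called, the bar is the list's median and the green triangles are the median with 1 library left out. The medians of cholesterol synthesis and mitosis move most between the DMSO libraries (0.0453 to 0.215 and 0.0862 to 0.345), and that of the ribosomal proteins stays near 0.

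Transcription factors of the Sox family, which share a DNA-binding box, changed in both directions. Of 11 tested members, 4 of them well expressed, 2 rose and 2 fell (4, 4, 3 and 4 calls with 1 library left out). Sox8, expressed in muscle precursors, had the largest rise of any eligible gene, from 10.3 and 11.5 CPM with DMSO to 19 and 19.8 CPM with 4-PBA (0.83, SE 0.0889, adjusted p = 1.67e-07). Its day 0 mean was 1.01 CPM. Sox4 measured 234 and 233 CPM with DMSO against 262 and 273 CPM with 4-PBA (0.20, SE 0.0318, adjusted p = 0.000116). Sox9, the chondrocyte factor and the bulk of the chondrocyte marker sum, measured 132 and 131 CPM with DMSO against 112 and 106 CPM with 4-PBA (-0.27, SE 0.0358, adjusted p = 5.76e-06). These 3 kept their calls with any 1 library left out, and in each the groups were far apart for the spread of the replicates. Sox11 measured 174 and 173 CPM with DMSO against 152 and 157 CPM with 4-PBA (-0.16, SE 0.0338, adjusted p = 0.00207; 0.119 without 4-PBA replicate 1).

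Leucine zipper (bZIP) factors gave 0 higher and 7 lower calls of 38 tested members (8, 9, 3 and 4 with 1 library left out), while the median of the list was 0.00116; with library size as the only scaling 1 of 5 calls was higher. The calls fell on the heme-regulated repressor Bach1, on its small Maf partners Mafg, Mafk and Maff, on the related Nfe2l1, and on the Fos-related factors Fosl2 and Fosl1. Bach1 measured 143 and 144 CPM with DMSO against 109 and 104 CPM with 4-PBA (-0.43, SE 0.0379, adjusted p = 2.59e-09). Fosl2 measured 201 and 192 CPM with DMSO against 168 and 160 CPM with 4-PBA (-0.26, SE 0.0345, adjusted p = 7.93e-06). Both kept their calls with any 1 library left out. Mafg measured 154 and 154 CPM with DMSO against 135 and 141 CPM with 4-PBA (-0.16, SE 0.0337, adjusted p = 0.00296; 0.148 without 4-PBA replicate 1). Nfe2l1 (-0.10), Mafk (-0.17) and Maff (-0.19) also fell, with adjusted p = 0.479, 0.149 and 0.125 without 4-PBA replicate 1 and 0.122, 0.244 and 0.338 without 4-PBA replicate 2.

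Krüppel-like and Sp factors gave 1 higher and 4 lower calls of 22 tested members (3, 4, 2 and 2 with 1 library left out). Klf6 measured 326 and 313 CPM with DMSO against 277 and 258 CPM with 4-PBA (-0.26, SE 0.0334, adjusted p = 6.42e-06), and kept its call with any 1 library left out. Klf7 measured 56.1 and 55.5 CPM with DMSO against 49.5 and 50.1 CPM with 4-PBA (-0.16, SE 0.0463, adjusted p = 0.0307), with up to 0.248 without 4-PBA replicate 1. Klf5 and Sp1 also fell, and Sp8 rose at under 10 CPM.

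Homeobox factors gave 3 higher and 2 lower calls of 68 tested members, of which 34 were well expressed (6, 8, 4 and 3 with 1 library left out). Zfhx4, a large zinc finger and homeobox factor, measured 93 and 90.4 CPM with DMSO against 74.1 and 69.4 CPM with 4-PBA (-0.35, SE 0.0422, adjusted p = 1.02e-06). This call stood with any 1 library left out. Hoxc11 measured 17.3 and 17.2 CPM with DMSO against 21.1 and 22.2 CPM with 4-PBA (0.33, SE 0.0663, adjusted p = 0.0015; 0.0611 without 4-PBA replicate 2). Tgif2, a corepressor of TGF-β responses, rose at a low level, from 6.24 and 4.83 to 8.36 and 8.49 CPM (0.61, SE 0.117, adjusted p = 0.000913).

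Among 36 tested nuclear receptors 1 rose and 2 fell (4, 2, 1 and 0 with 1 library left out). Nr6a1 measured 23.3 and 24.5 CPM with DMSO against 20.6 and 18 CPM with 4-PBA (-0.31, SE 0.0745, adjusted p = 0.00972; 0.298 without 4-PBA replicate 2). Rara, a retinoic acid receptor, measured 40.1 and 38.6 CPM with DMSO against 43.9 and 45 CPM with 4-PBA (0.17, SE 0.0493, adjusted p = 0.0309), and lost its call without any library other than DMSO replicate 1, with 0.275 without 4-PBA replicate 2.

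Basic helix-loop-helix factors gave 4 higher and 2 lower calls of 40 tested members (5, 8, 2 and 1 with 1 library left out). Bhlhe40, a repressor of the clock that is also induced during muscle differentiation, measured 356 and 354 CPM with DMSO against 308 and 300 CPM with 4-PBA (-0.22, SE 0.0304, adjusted p = 1.02e-05). Per1, a core clock repressor, measured 47.7 and 47.1 CPM with DMSO against 39.4 and 37.4 CPM with 4-PBA (-0.30, SE 0.0531, adjusted p = 0.000332). Both kept their calls with any 1 library left out and were the only calls among 22 tested clock genes (2, 5, 2 and 2). Mnt, a repressor in the Myc network, measured 52.9 and 50.5 CPM with DMSO against 56.3 and 60.1 CPM with 4-PBA (0.17, SE 0.0477, adjusted p = 0.028; 0.125 without DMSO replicate 2 and 0.41 without 4-PBA replicate 2). Ahr, the dioxin receptor, rose from 21.4 and 22.1 to 25.6 and 25.4 CPM (0.23, SE 0.0659, adjusted p = 0.0361), with 0.121, 0.229, 0.186 and 0.051 without DMSO replicate 1, 4-PBA replicate 1, 4-PBA replicate 2 and day 0 replicate 1.

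The list of Mef2, Tead, Srf and myogenic cofactors gave 0 higher and 3 lower calls of 26 tested members (3, 3, 1 and 1 with 1 library left out). Ldb3, which encodes a Z-disc protein of the sarcomere, measured 133 and 140 CPM with DMSO against 116 and 110 CPM with 4-PBA (-0.27, SE 0.0407, adjusted p = 4.29e-05), and kept its call with any 1 library left out. Mrtfb, a coactivator of the serum response factor, measured 76.1 and 72.7 CPM with DMSO against 67.9 and 66 CPM with 4-PBA (-0.15, SE 0.0436, adjusted p = 0.0335; up to 0.309 without 4-PBA replicate 2). Tead4, a TEAD factor, measured 91.2 and 95.9 CPM with DMSO against 86.6 and 82.6 CPM with 4-PBA, and lost its call without any library other than DMSO replicate 1.

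Histone deacetylases, the enzymes that 4-PBA inhibits, were read together with acetyltransferases and corepressors. Of 42 tested members, 41 of them well expressed, 1 rose and 2 fell, a share of 7.14% beside 7.91% of all well-expressed genes (4, 3, 1 and 0 with 1 library left out). Hdac4, a class II deacetylase that restrains Mef2, measured 52.7 and 55.1 CPM with DMSO against 47.7 and 47.7 CPM with 4-PBA (-0.18, SE 0.0499, adjusted p = 0.0301). The corepressor Ncor1 measured 231 and 233 CPM with DMSO against 218 and 212 CPM with 4-PBA (-0.11, SE 0.0314, adjusted p = 0.0305). Rcor1, a scaffold of the CoREST complex, measured 66.6 and 62.3 CPM with DMSO against 73.1 and 72.1 CPM with 4-PBA (0.17, SE 0.0438, adjusted p = 0.0138). All 3 lost their calls without either 4-PBA library, with adjusted p = 0.215, 0.393 and 0.0942 without 4-PBA replicate 2 and 0.207, 0.118 and 0.161 without 4-PBA replicate 1. Hdac4 and Rcor1 also lost them without DMSO replicate 2 (0.141 and 0.122), and Ncor1 without either day 0 library (0.0662 and 0.0631). The class I enzymes Hdac1 (0.13, SE 0.0411, adjusted p = 0.0583), Hdac2 (0.03, SE 0.0345, adjusted p = 0.727) and Hdac3 (0.01, SE 0.0443, adjusted p = 0.966) were not called.

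Numbered Zfp zinc finger genes, the largest transcription factor list, had 2 higher and 5 lower calls of 331 tested members, 2.11% in all and below the share over all genes (12, 13, 3 and 1 with 1 library left out). Zfp568 measured 108 and 106 CPM with DMSO against 94.4 and 91.8 CPM with 4-PBA (-0.20, SE 0.039, adjusted p = 0.00105; 0.0611 without 4-PBA replicate 2). Zfp553 measured 13.1 and 13.3 CPM with DMSO against 16.3 and 17.9 CPM with 4-PBA (0.37, SE 0.077, adjusted p = 0.00214; 0.105 without 4-PBA replicate 2), and Zfp948 30.1 and 27.3 against 22.6 and 23.8 CPM (-0.30, SE 0.0632, adjusted p = 0.00242; 0.0859 without 4-PBA replicate 1). Many of these genes share sequence with relatives, so their separate counts are uncertain. Of the transcription factors described, exons of Sox8, Sox4, Mafk, Klf7, Tgif2, Bhlhe40, Ahr, Mrtfb, Hdac4, Ncor1 and Zfp553 overlap a gene on the opposite strand.

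Calls among genes of cell division were higher with 4-PBA, and those among contractile genes were mostly lower. DNA replication had 16 higher and 0 lower calls of 46 tested members, with a median of 0.174 and 27, 5, 8 and 4 calls with 1 library left out. Mcm7, of the replicative helicase, measured 56.5 and 53.6 CPM with DMSO against 65.8 and 67.5 CPM with 4-PBA, the single-strand binding protein Rpa1 88.3 and 83.5 against 98.7 and 97.4 CPM, and the sliding clamp Pcna 92.8 and 86.7 against 103 and 101 CPM. All 31 mitosis genes were positive with a median of 0.211 and 11 were called higher, but 31, 5, 0 and 1 were called with 1 library left out. The most abundant, the topoisomerase Top2a, measured 164 CPM in DMSO replicate 1, 139 CPM in DMSO replicate 2, and 179 and 181 CPM with 4-PBA, and was not called (0.25, SE 0.0894, adjusted p = 0.299). The list's sum was 1615 and 1345 CPM in DMSO replicates 1 and 2 and 1696 and 1715 CPM with 4-PBA, so the gap within the DMSO pair exceeded that between DMSO replicate 1 and either 4-PBA library. Day 0 sums were 5455 and 5505 CPM.

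Contractile genes gave 1 higher and 18 lower calls of 56 tested members (29, 18, 11 and 13 with 1 library left out; median -0.129), and their sum went from 21640 and 22660 CPM with DMSO to 20430 and 20840 CPM with 4-PBA. The slow myosin Myh7 measured 47.6 and 46.6 CPM with DMSO against 33.1 and 35.9 CPM with 4-PBA (-0.45, SE 0.059, adjusted p = 6.07e-06). The giant proteins titin and nebulin measured 2614 and 2691 against 2176 and 2207 CPM for Ttn and 456 and 489 against 359 and 364 CPM for Neb. All 3 kept their calls with any 1 library left out. The rise was Tpm1, a tropomyosin, at 1150 and 1131 against 1241 and 1233 CPM (0.12, SE 0.0269, adjusted p = 0.00637; 0.169 and 0.133 without 4-PBA replicates 1 and 2). Long genes were lower more often in the whole table: among well-expressed genes the longest 1870 by exon length (median 10554.5 bases) had 43 higher and 155 lower calls, and the shortest 1870 (median 2015 bases) 77 and 52. With each day 4 library's trend with exon length removed, the list had 19 calls and a median of -0.133.

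Matrix genes gave calls in both directions. Of 40 tested collagens and basement membrane genes 9 rose and 2 fell, with a median of 0.00192, 22 positive members and 10, 18, 8 and 8 calls with 1 library left out. The list's sum was 40770 and 39200 CPM with DMSO against 38140 and 38520 CPM with 4-PBA. Fibronectin, Fn1, measured 10570 and 9965 CPM with DMSO against 8799 and 8946 CPM with 4-PBA. The type IV collagen genes Col4a1, at 877 and 899 against 1006 and 1005 CPM, and Col4a2, at 674 and 682 against 765 and 768 CPM (0.18, SE 0.0277, adjusted p = 6.95e-05), rose, as did the nidogen Nid2, at 218 and 227 against 261 and 257 CPM. The fibrillar collagen Col11a1 measured 13.4 and 13 CPM with DMSO against 17.6 and 20.1 CPM with 4-PBA (0.51, SE 0.0868, adjusted p = 0.0002). In each of these 5 genes the treatments were apart in both libraries and the call stood with any 1 library left out. Exons of Col4a1 and Col4a2 overlap each other on opposite strands, so their rises may share reads.

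Heat shock and endoplasmic reticulum chaperones gave 1 higher and 1 lower call of 42 tested members, with a median of 0.00888 (7, 3, 0 and 0 with 1 library left out). Sdf2l1, which helps the BiP folding cycle, measured 15.1 and 16.6 CPM with DMSO against 19.3 and 19.8 CPM with 4-PBA (0.31, SE 0.0742, adjusted p = 0.00979; 0.0735, 0.069 and 0.122 without DMSO replicate 1, 4-PBA replicate 1 and 4-PBA replicate 2). Hspa9, the mitochondrial HSP70, measured 588 and 586 CPM with DMSO against 539 and 541 CPM with 4-PBA (-0.12, SE 0.0276, adjusted p = 0.00578; 0.154 and 0.133 without 4-PBA replicates 1 and 2).

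Most of the largest changes in well-expressed genes lay outside these lists. Of the 10 largest rises, Prelp, a proteoglycan that anchors basement membranes, measured 15.8 and 14.5 CPM with DMSO against 22.8 and 20.7 CPM with 4-PBA (0.52, SE 0.0839, adjusted p = 0.000109). Gadd45g, a stress and growth arrest gene, measured 101 and 105 CPM with DMSO against 137 and 141 CPM with 4-PBA (0.44, SE 0.0375, adjusted p = 1.37e-09), the smallest adjusted p among the rises. Cbx2, a Polycomb reader, measured 9.48 and 8.94 CPM against 11.9 and 13.8 CPM (0.49, SE 0.0881, adjusted p = 0.000474; 0.0585 without 4-PBA replicate 2), and Phf13, which binds trimethylated histone H3, 19.2 and 18 against 24.1 and 25.4 CPM (0.41, SE 0.0657). The complement protease C1s1 (0.48, SE 0.0958), Unkl (0.46, SE 0.0747) and the immediate-early-like gene Ier5l (0.42, SE 0.0638) completed the 10 with Sox8, Col11a1 and Slc30a1.

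Of the 10 largest falls, Zc3h12a, the ribonuclease Regnase-1 that degrades inflammatory messenger RNAs, measured 26 and 26.4 CPM with DMSO against 19.4 and 18.8 CPM with 4-PBA (-0.46, SE 0.0717, adjusted p = 7.58e-05). Ccdc88c, the Wnt regulator Daple, measured 40.3 and 39.6 CPM with DMSO against 29.6 and 28.5 CPM with 4-PBA (-0.46, SE 0.0632, adjusted p = 1.04e-05). Prag1, a pseudokinase, measured 22.3 and 20 CPM against 15.3 and 14.8 CPM (-0.49, SE 0.0799), and Ctrb1, the digestive protease chymotrypsinogen, 21.8 and 23 against 15.4 and 16.2 CPM (-0.50, SE 0.0788). The unnamed loci Gm6634 (-0.57, SE 0.0659) and B930095G15Rik (-0.53, SE 0.0939) completed the 10 with Acsbg1, Casq1, Grem1 and Dusp4. The naming rule required groups that did not overlap, so this held for all 20 by choice. Apart from Cbx2 these genes kept their calls with any 1 library left out. Exons of Sox8, Prelp, Slc30a1, C1s1, Unkl, Casq1 and Ccdc88c, as of Mcm7, Ttn, Neb, Myh7, Fn1, Nid2, Col4a1 and Col4a2, overlap a gene on the opposite strand.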

How the data were processed

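RNA was sequenced with a directional library kit, per the labels' protocols, and the authors deposited raw counts per gene symbol in 1 table with 1 column per library. The build was GRCm39, per the submitters' processing notes; aligner, counter, annotation and strand setting are not given in the sources used here. Genes passing filterByExpr were tested by edgeR 4.0.16 (R 4.3.3): TMM scaling, 1 mean per group over all 6 libraries (all labelled batch 1), robust quasi-likelihood F tests and Benjamini-Hochberg adjustment over 17433 genes. The standard error (SE) is the size of the log2 fold change divided by the square root of F. Residual degrees of freedom were 3, the median prior degrees of freedom 30.4 and the common biological coefficient of variation 3.74%. Replicate spread rather than counting error limited the precision of abundant genes, while near 10 CPM and below counting error also mattered. Chi-square per degree of freedom between replicates was 5.71 to 7.15 at day 4. On simulated counts with 200 changed genes, 19 of 50 changed 1.15-fold and 46 of 50 changed 1.5-fold were called. In the same simulation 11 unchanged genes were called. Its noise was drawn separately for each gene, so it holds no spread that genes share within a library.

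The groups, tests, lists and members were chosen with earlier results of these data known. A gene was eligible for naming if called, at 10 CPM or more, without overlap between groups and within 1.5 times of its log2 fold change with any 1 day 4 library left out. Named were the 10 largest eligible rises and falls and in each list up to 3 eligible members, by adjusted p, or the most abundant member where none was eligible; some genes that the rule named are not reported here. Genes outside this rule were chosen after their values were seen, among them Mt2, Slc39a10, Spry4, Myc, Cth, Igfbp3, Depp1, Wnt4, Bmp4, Tgif2 and the uncalled genes given for contrast. The alternatives were DESeq2 1.42.0 size factors and Wald test, library size only, other filters, a replicate block, only the 4 day 4 libraries, stricter thresholds and leaving out each library; removal of the trend with length was added after seeing the data. GENCODE M21 gave exon lengths and overlaps, with entries for 16469 tested genes, and RefSeq (GRCm38.p6) gave promoters; Relb had no entry there. Levels in CPM are not corrected for length and were compared only within a gene. Plots used matplotlib 3.10.9 (Python 3.11.15).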

Additional observations from a re-analysis of the deposited data

How the results depend on the processing

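The 855 calls became 295 to 1194 with 1 library left out, and the 757 well-expressed calls 260 to 1073; both were lowest without 4-PBA replicate 2 and highest without DMSO replicate 1. At an adjusted p under 0.01 there were 424 and 390 calls, and 59 calls changed by at least 1.5-fold. Other alternatives gave 682 (DESeq2 Wald test) to 1095 calls (no filter beyond 1 count). With a replicate block 768 genes were called, 742 of them shared with the main fit. The deviations of same-numbered libraries correlated at 0.0616, -0.0844 and -0.0942 between the 3 pairs of groups. The numbers were therefore not taken to pair the libraries. The naming rule required a called gene to keep its direction with any 1 day 4 library left out, so those fits could not reverse it. The 103 called genes named by the rule and reported kept their direction in the 14 alternative fits, and 30 and 37 of them lost their call without 4-PBA replicate 1 or 2.

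Uncalled genes near 0 changed sign, and the cause was not tested. With 1 library left out the log2 fold change ranged from -0.0683 to 0.0793 for Ugp2, -0.0695 to 0.062 for Acadsb, -0.0528 to 0.0605 for mt-Co1 and -0.0385 to 0.0191 for Rplp0. With the length trend removed it was -0.00924 for Ugp2 and -0.00678 for mt-Co1. With library size only it was 0.00317 for Acadsb. The SE was 0.0958 for C1s1, near 10 CPM, and 0.0263 for the abundant Ttn. Level alone did not set the error, since the abundant Egr1, Errfi1 and Rn18s-rs5 had wider errors than C1s1. Low genes such as Cth, Traf1 and Wnt4 also had wider errors.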

Other observations

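Some called genes outside the lists share a known role, and are given as values; they were picked after their values were seen, so they are a description and no test of the groups. At the neuromuscular junction, the acetylcholine receptor subunits Chrng (gamma, the embryonic form) and Chrnd (delta) and the adaptor Dok7, which activates the kinase that gathers receptors, were lower with 4-PBA. The receptor subunit genes Chrna1 and Chrnb1 were not among the called genes. Chrng measured 179 and 202 CPM with DMSO against 148 and 147 CPM with 4-PBA (log2 fold change -0.37, SE 0.0441). Chrnd measured 191 and 198 CPM against 162 and 165 CPM (-0.25, SE 0.0335), and Dok7 measured 72.9 and 67.6 CPM against 58.5 and 59.8 CPM (-0.25, SE 0.0465). The fusion peptide gene Mymx measured 60.6 and 67.1 CPM with DMSO against 51.1 and 49.4 CPM with 4-PBA (-0.35, SE 0.0532). These 4 calls stood with any 1 library left out.

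Chromatin genes were found among the rises. The linker histone H1f0, a gene long known to respond to deacetylase inhibitors such as butyrate, measured 278 and 281 CPM with DMSO against 345 and 319 CPM with 4-PBA (0.25, SE 0.0335). H1f10, another linker histone, measured 20.5 and 18.1 CPM against 25.8 and 24.4 CPM (0.38, SE 0.0684), and the Polycomb methyltransferase Ezh2 43.5 and 42.4 CPM against 50.7 and 51.6 CPM (0.25, SE 0.0439). Hmga2, an architectural protein of growing cells, measured 80 and 70.7 CPM with DMSO against 56.6 and 57.4 CPM with 4-PBA (-0.40, SE 0.0448). Exons of H1f0, Ezh2 and Hmga2 overlap a gene on the opposite strand.

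Genes of inflammatory RNA control and interferon response were among the falls. Arid5a, which stabilises messenger RNAs that Zc3h12a degrades, measured 96.9 and 86.6 CPM with DMSO against 67.4 and 67.7 CPM with 4-PBA (-0.44, SE 0.0479). Apol9b measured 64.2 and 60.5 CPM against 47.9 and 47.2 CPM (-0.39, SE 0.0485), with a near-identical copy in Apol9a, between which reads may be split. Ifi202b measured 54.7 and 56.7 CPM against 47.2 and 47.1 CPM (-0.24, SE 0.0464). Secreted matrix proteins moved both ways: Islr measured 61.6 and 60.3 CPM with DMSO against 84 and 77.8 CPM with 4-PBA (0.41, SE 0.0458), Fbln5, an elastic fibre protein, 72.9 and 65.7 CPM against 84.4 and 83 CPM (0.27, SE 0.0487), and Spp1, osteopontin, 1024 and 957 CPM against 793 and 828 CPM (-0.29, SE 0.0302).

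A few abundant transcripts differed by as much as these and were not called. Lars2 measured 266, 239 and 240 CPM in the other day 4 libraries and 432 CPM in 4-PBA replicate 2, the same library that stood apart for Cmss1 and Cdk8. Rn18s-rs5, a ribosomal RNA-related entry, measured 1429 and 1256 CPM with DMSO against 2122 and 1908 CPM with 4-PBA (0.59, SE 0.252, adjusted p = 0.417). Errfi1, an inhibitor of the EGF receptor, measured 308 and 282 CPM with DMSO against 243 and 173 CPM with 4-PBA (-0.51, SE 0.201, adjusted p = 0.385).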
